A study of Mus musculus with 8 samples.

Results

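Expression of 10 genes that mark brain endothelial cells and the blood-brain barrier was examined in the hypothalamus of Nestin-Pex5-/- and wild type mice. The genes were the junction components Cldn5, Ocln, Tjp1 and Cdh5, the endothelial surface proteins Pecam1 and Cd34, the transporters Slc2a1, Mfsd2a and Abcb1a, and the peptide ligand Apln, and they make up 10 of the 18194 genes read by the arrays. They were chosen by name, with earlier results of these data known. A total of 15 probe sets annotated to 1 of these genes represented them, and where a gene had several, the one with the highest mean over the 8 arrays was taken as its main probe set and the dimmer ones are given beside it. That choice used only the mean level over both genotypes, so the level itself is a description.

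RNA was taken from the hypothalamus of 4 Nestin-Pex5-/- mice (replicates 7, 8, 9 and 10) and 4 wild type mice (replicates 1, 2, 3 and 4), all 10 weeks old and untreated, with 1 Affymetrix whole-genome mouse expression array for each mouse. Nestin-Pex5-/- mice, bred into a Swiss Webster background, carry a floxed gene for Pex5, the import receptor of peroxisomal matrix proteins, and Cre recombinase under the Nestin promoter. Recombination is therefore directed at cells that descend from neural progenitors, that is neurons, astrocytes and oligodendrocytes, and not at endothelial cells or microglia, which have another origin. The values are log2 intensities after RMA, which subtracts background and quantile-normalizes the arrays, and they ranged from 2.91 to 15.03, with array medians between 6.70 and 6.84. Hypothalamus was hybridised whole, so fewer endothelial cells and less RNA per endothelial cell cannot be told apart.

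Endothelial cells of brain capillaries form the blood-brain barrier. Tight junctions, built from claudins, occludin and scaffold proteins such as ZO-1, seal the space between neighbouring cells, and adherens junctions built on VE-cadherin hold the cells together. Nutrients cross through carriers such as the glucose transporter GLUT1, drugs are pumped back into the blood by P-glycoprotein, and vesicle traffic through the cell is kept low with the help of the lysophospholipid transporter MFSD2A. Pericytes, a basement membrane and the end-feet of astrocytes surround the capillary, and Wnt and Norrin signals to the endothelium maintain the barrier. In the median eminence and other circumventricular parts of the hypothalamus the capillaries are fenestrated and leaky.

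Pex5 read 8.67 ± 0.071 in Nestin-Pex5-/- arrays and 8.66 ± 0.038 in wild type arrays (SD, n = 4 each). Where its probes lie relative to the deleted part is not given in the sources used here, so this reading does not check the labels. Wild type replicate 3 carried a higher level of striatal projection neuron genes (mean of 6 genes 10.73, where wild type replicates 1, 2 and 4 had 8.65 to 9.47), and wild type replicate 4 a lower level of choroid plexus and ependyma genes (mean of 12 genes 7.03, lowest of the 8 arrays). Meningeal fibroblast genes were low in Nestin-Pex5-/- replicates 7 and 8 (means of 9 genes 7.10 and 7.31, where replicates 9 and 10 had 8.39 and 8.38). Where leaving out these arrays together ended a call of a gene covered by the naming rule, the value without them is given. Of the 12 choroid plexus and ependyma genes, 0 rose and 1 fell, Rarres2. Its call was lost without Nestin-Pex5-/- replicates 7 and 8 together (log2 fold change -0.51, limma adjusted p = 0.0717). With probe sets of the _s_at, _x_at and _a_at kinds left out, the log2 fold change was -0.08 and the call was lost as well (limma adjusted p = 0.617). The call was lost in 6 of 20 alternatives, with adjusted p from 0.0014 to 0.617.

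The stretches of 250 bases before the transcription start of 4 of the genes are shown, since 2 of these genes (Apln and Cd34) passed the test between the genotypes and the other 2 (Slc2a1 and Mfsd2a) were high together in 1 wild type array. They come from RefSeq on GRCm38.p6 and are written 5′ to 3′ on the strand of the gene, at chr4:119108495-119108744 (plus strand) for Slc2a1, chr4:122961189-122961438 (minus strand) for Mfsd2a, chrX:48034854-48035103 (minus strand) for Apln and chr1:194938571-194938820 (plus strand) for Cd34. Capitals mark ACGTG or its reverse complement CACGT, a form of the core bound by hypoxia-inducible factors, called the hypoxia core here. The other form, GCGTG, was not searched or marked. Capitals also mark AGGAAG or CTTCCT, which hold the core bound by ETS factors such as Fli1, Ets1 and Erg.
Slc2a1: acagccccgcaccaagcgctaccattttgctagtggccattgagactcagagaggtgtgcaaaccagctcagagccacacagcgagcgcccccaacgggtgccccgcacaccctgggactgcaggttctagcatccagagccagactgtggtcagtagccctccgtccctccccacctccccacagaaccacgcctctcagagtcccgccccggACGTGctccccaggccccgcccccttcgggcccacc
Mfsd2a: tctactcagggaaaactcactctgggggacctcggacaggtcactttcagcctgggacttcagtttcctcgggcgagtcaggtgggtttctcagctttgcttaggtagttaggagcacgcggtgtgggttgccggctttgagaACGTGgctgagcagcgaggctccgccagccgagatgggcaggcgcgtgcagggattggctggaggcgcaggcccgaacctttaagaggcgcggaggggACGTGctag
Apln: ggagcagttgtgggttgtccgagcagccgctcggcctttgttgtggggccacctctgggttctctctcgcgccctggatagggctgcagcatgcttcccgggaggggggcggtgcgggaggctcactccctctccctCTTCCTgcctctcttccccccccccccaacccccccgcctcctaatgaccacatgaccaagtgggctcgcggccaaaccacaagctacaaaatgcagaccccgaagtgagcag
Cd34: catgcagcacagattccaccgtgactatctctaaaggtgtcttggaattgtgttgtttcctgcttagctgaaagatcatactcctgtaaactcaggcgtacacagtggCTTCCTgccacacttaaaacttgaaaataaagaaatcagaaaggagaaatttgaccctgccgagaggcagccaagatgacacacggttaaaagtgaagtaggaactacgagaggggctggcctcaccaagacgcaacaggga
The hypoxia core stood 36 bases before the start of Slc2a1 and 107 and 9 bases before that of Mfsd2a, and the ETS core 113 bases before that of Apln and 142 bases before that of Cd34. Of the 9 windows held for 8 of the 10 genes, 2 contained the hypoxia core, against 16.6% of all 32851 windows of this length, and 3 contained the ETS core, against 29.5%. The third of these was Abcb1a, with the ETS core at 104 and 93 bases before the start. The letters AGAACA or TGTTCT, a repeat unit of the steroid hormone receptor site, were in 0 of the 9 windows and in 16.1% of all. These matches describe the letters only.

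Of the 10 genes, Cd34 rose and Apln fell in Nestin-Pex5-/- hypothalamus, and the other 8 did not pass the test. Cd34 was 2.34-fold higher and Apln was 0.539-fold of the wild type level. The tight junction genes, VE-cadherin, Pecam1 and the transporters had fold values whose 95% intervals lay between 0.692 and 1.31. In the limma fit over all genes, with Benjamini-Hochberg adjustment and a threshold of 0.05, 2 of 10 genes were called, 1 in each direction, while 4.77% of all genes were called, 3.98% with the higher and 0.791% with the lower mean in Nestin-Pex5-/- mice. With no adjustment, 3 of 10 had a p under 0.05 (Cd34, Tjp1 and Apln), against 16.9% of all genes (8.85% higher, 8.01% lower). In the same 3 genes no Nestin-Pex5-/- array fell within the wild type range or the reverse, 2 being higher (6.63% of all genes) and 1 lower (4.51% of all genes), together 11.1% of all genes. Of the 8 genes not called, 6 had a lower mean and 2 a higher mean in Nestin-Pex5-/- arrays. The median log2 fold change of the 10 was -0.09, beside -0.03 for all genes. With 4 arrays per genotype the smallest p of the exact permutation test is 0.029.

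**Figure D1:**
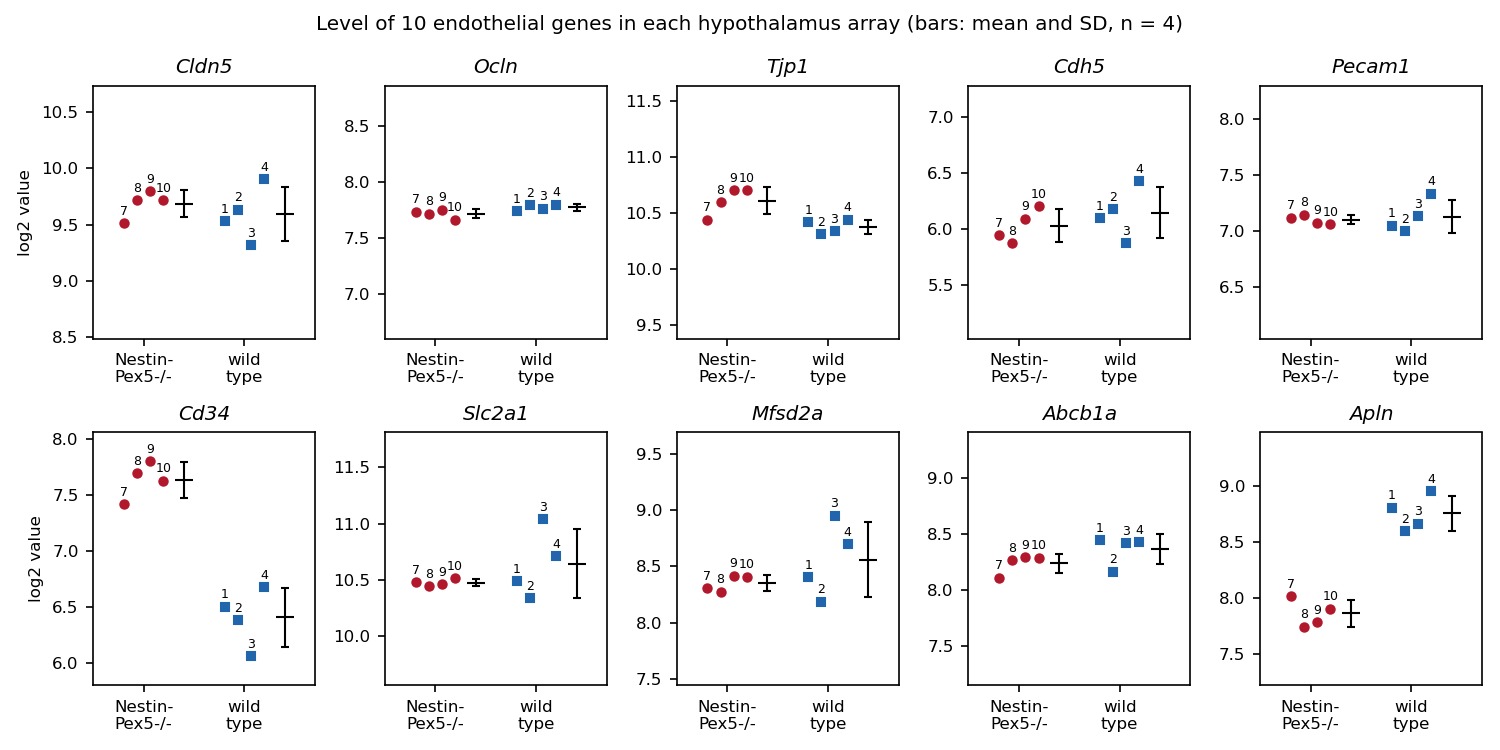
Log2 value of each of the 10 genes (main probe set) in each array, with Nestin-Pex5-/- arrays as red circles, wild type arrays as blue squares, replicate numbers above the points and mean ± SD (n = 4) as black bars; every panel spans the same number of log2 units. Cd34 and Apln separate widely by genotype, Tjp1 by a narrow margin, and the wild type arrays of Slc2a1 and Mfsd2a spread more widely than the Nestin-Pex5-/- arrays.

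Apln encodes apelin, a secreted peptide that acts on the receptor Aplnr; it is made by endothelial tip cells of growing vessels and, in the hypothalamus, by magnocellular vasopressin neurons. Its gene lies at chrX:48025146-48034853 (GRCm38) and was read by 1 probe set. Apln read 8.02, 7.75, 7.79 and 7.91 in Nestin-Pex5-/- replicates 7 to 10, against 8.81, 8.60, 8.66 and 8.96 in wild type replicates 1 to 4. All Nestin-Pex5-/- arrays lay below all wild type arrays, and the gap between the groups was wider than the spread within either. The means were 7.86 ± 0.12 in Nestin-Pex5-/- and 8.76 ± 0.16 in wild type mice (SD, n = 4 each), a log2 fold change of -0.89 (SE 0.093), or 0.539-fold with a 95% interval of 0.467 to 0.623 (limma adjusted p = 3.4e-04, exact permutation p = 0.029). Only 4 of the 144 genes called lower fell by more. The call held under all 20 alternatives, with log2 fold changes of -1.02 to -0.82.

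Aplnr, the receptor, was not called. It read 6.14 ± 0.17 in Nestin-Pex5-/- and 6.20 ± 0.29 in wild type arrays, 0.958-fold with an interval of 0.767 to 1.20 (limma adjusted p = 0.864). The hormones of the magnocellular neurons overlapped between the genotypes as well. Avp, which encodes vasopressin, read 11.13 to 11.84 in Nestin-Pex5-/- and 11.07 to 11.76 in wild type arrays. The log2 fold change of Avp was 0.0037 (limma adjusted p = 0.994). Oxt, which encodes oxytocin, read 10.64 to 11.53 in Nestin-Pex5-/- and 10.998 to 11.65 in wild type arrays. Oxt leaned lower, at 0.749-fold with an interval of 0.548 to 1.02, and was not called (limma adjusted p = 0.334). Its values in wild type replicates 1, 2 and 4 (11.57 to 11.65) lay above every Nestin-Pex5-/- array. Of 10 neuronal genes, 1 was called, Slc32a1, the vesicular transporter of GABA and glycine, which fell to 0.694-fold (limma adjusted p = 0.0164). That call was lost when its probe sets were averaged (log2 fold change -0.16, adjusted p = 0.257), and without Nestin-Pex5-/- replicate 8 (0.0527) or 9 (0.05004) or wild type replicate 1 (0.0553), within 0.0020 to 0.257 over 20 alternatives. The part of neurons in the value of Apln was not tested. Aplnr, Avp and Oxt were named after their values had been seen.

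Among 19 other genes of the apelin, VEGF and angiopoietin pathways, 2 rose and 0 fell, with a median log2 fold change of 0.01. Angpt1, the ligand that stabilises vessels through the receptor Tek, read 7.82, 7.74, 7.87 and 8.22 in Nestin-Pex5-/- arrays against 7.03, 6.97, 6.62 and 6.52 in wild type arrays, 2.18-fold higher (limma adjusted p = 0.0010). This call held under all 19 alternatives. Angptl4, an inhibitor of lipoprotein lipase that also acts on vessels, was 1.74-fold higher (limma adjusted p = 0.0086). Its main probe set is of the _s_at kind, which can bind related transcripts, and with such probe sets left out its log2 fold change was 0.04 (adjusted p = 0.809). Its call was also lost without Nestin-Pex5-/- replicates 7 and 8 together (log2 fold change 0.64, adjusted p = 0.0914, within 0.0021 to 0.809 over 19 alternatives). Vegfa, the chief growth factor of endothelial cells, overlapped between the genotypes, at 8.95 ± 0.17 in Nestin-Pex5-/- and 8.97 ± 0.039 in wild type arrays; it was named after its values had been seen.

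Cd34 encodes a sialomucin on the luminal face of endothelial cells and on blood progenitor cells. The gene lies at chr1:194938821-194961292 (GRCm38) and was read by 1 probe set. Cd34 read 7.42, 7.70, 7.80 and 7.63 in the Nestin-Pex5-/- arrays, against 6.50, 6.39, 6.06 and 6.68 in the wild type arrays, in the same replicate order. The lowest Nestin-Pex5-/- array, replicate 7, was above the highest wild type array, replicate 4. The means were 7.64 ± 0.16 in Nestin-Pex5-/- and 6.41 ± 0.26 in wild type mice (SD, n = 4 each), a log2 fold change of 1.23 (SE 0.13), or 2.34-fold with a 95% interval of 1.91 to 2.87 (limma adjusted p = 4.0e-04, exact permutation p = 0.029). Of the genes called higher, 168 rose by more. The call held under all 19 alternatives that kept the gene, with log2 fold changes of 1.10 to 1.32.

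Of 28 other genes of endothelial identity, 1 rose (Fli1) and 0 fell, and their median log2 fold change was -0.01. Their mean per array was 7.48, 7.57, 7.63 and 7.67 in the Nestin-Pex5-/- arrays and 7.50, 7.52, 7.38 and 7.74 in the wild type arrays, so the genotypes overlapped. Kdr, the main VEGF receptor, was at 0.992-fold with an interval of 0.836 to 1.18, and Tek at 1.02-fold with an interval of 0.842 to 1.24. These receptors were named after their values had been seen.

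Fli1 encodes an ETS transcription factor of endothelial and blood cells. It read 7.08, 7.22, 7.06 and 7.24 in Nestin-Pex5-/- arrays against 6.28, 6.42, 5.40 and 6.51 in wild type arrays, 1.998-fold higher (limma adjusted p = 0.0251). Wild type replicate 3 was far below the other 3, and without it the log2 fold change was 0.75 in place of 0.998. The call was lost without Nestin-Pex5-/- replicate 8 (adjusted p = 0.0806), 9 (0.0610) or 10 (0.0810) without wild type replicate 1 (0.0549), and without Nestin-Pex5-/- replicates 7 and 8 together (0.137), within a range of 0.0010 to 0.137 over 19 alternatives. Mcam, an adhesion molecule of endothelial cells and pericytes, had the next largest log2 fold change of the list, 0.62, and did not pass the test (limma adjusted p = 0.120); it was named after its values had been seen.

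Markers of other cells that can carry CD34 or FLI1 were read beside these 2 genes. Of 10 genes of microglia and macrophages, 9 rose and 0 fell, and their mean lay between 9.98 and 10.32 in Nestin-Pex5-/- arrays against 8.04 to 8.26 in wild type arrays. Adgre1, which encodes F4/80, was 7.99-fold higher. Of 12 genes of lymphocytes, neutrophils, monocytes and platelets, 0 were called, and their mean lay between 5.75 and 5.92 in Nestin-Pex5-/- and 5.87 and 6.06 in wild type arrays. The part of these cells in the values of Cd34 and Fli1 was not tested.

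**Figure D2:**
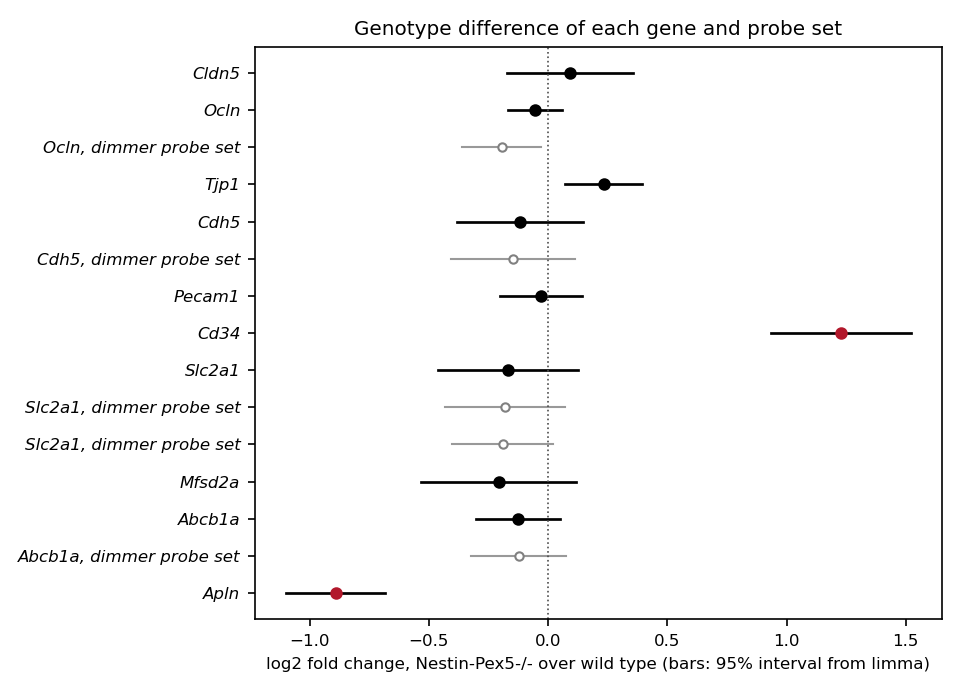
Difference in log2 value, Nestin-Pex5-/- minus wild type, for each gene's main probe set (filled, red where the adjusted p was under 0.05) and each dimmer probe set (open, grey), with 95% intervals from limma on 4 arrays per genotype. Only the intervals of Cd34, Tjp1, Apln and the dimmer probe set of Ocln lie off 0, and the 5 dimmer probe sets have the sign of their gene's main probe set.

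None of the 4 junction genes among the 10 passed the test. Cldn5 encodes claudin-5, the main sealing claudin of brain capillaries, at chr16:18776847-18778262 (GRCm38). It read 9.51, 9.72, 9.80 and 9.72 in the Nestin-Pex5-/- arrays, against 9.53, 9.63, 9.32 and 9.90 in the wild type arrays. The wild type arrays held both the lowest value (replicate 3) and the highest (replicate 4). The log2 fold change was 0.09 (SE 0.12), or 1.06-fold with an interval of 0.887 to 1.28 (limma adjusted p = 0.741). Without wild type replicate 3 it was -0.0022.

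Ocln encodes occludin, a membrane protein of tight junctions, at chr13:100496504-100552718 (GRCm38). It read 7.74, 7.72, 7.76 and 7.67 in Nestin-Pex5-/- arrays and 7.74, 7.80, 7.76 and 7.80 in wild type arrays. The values overlapped, and all 8 arrays were close together. The gene was at 0.962-fold with an interval of 0.890 to 1.04 (limma adjusted p = 0.622, exact permutation p = 0.0571). Its dimmer probe set read 6.86, 6.78, 7.02 and 6.85 in Nestin-Pex5-/- arrays and 7.11, 7.10, 6.93 and 7.15 in wild type arrays, at 0.873-fold (limma adjusted p = 0.245 over all probe sets, of which 3.47% were called, 0.472% as lower).

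Tjp1 encodes ZO-1, the scaffold that ties claudins and occludin to actin, at chr7:65296165-65527850 (GRCm38). It read 10.44, 10.60, 10.70 and 10.70 in Nestin-Pex5-/- arrays, against 10.42, 10.31, 10.34 and 10.44 in wild type arrays. The genotypes did not overlap, though Nestin-Pex5-/- replicate 7 (10.442) and wild type replicate 4 (10.441) almost touched. The means were 10.61 ± 0.12 in Nestin-Pex5-/- and 10.38 ± 0.063 in wild type mice (SD, n = 4 each), 1.18-fold with an interval of 1.05 to 1.31 (exact permutation p = 0.029). The adjusted p of the limma fit was 0.122, so the gene was not called. Without Nestin-Pex5-/- replicate 7 the log2 fold change was 0.29 and the adjusted p 0.0394, and with array weights they were 0.29 and 0.0164. Over all alternatives the adjusted p ran from 0.0164 to 0.299.

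Cdh5 encodes VE-cadherin, the cadherin of endothelial adherens junctions, at chr8:104101613-104144504 (GRCm38). It read 5.95, 5.88, 6.10 and 6.20 in Nestin-Pex5-/- arrays and 6.10, 6.18, 5.88 and 6.43 in wild type arrays. Wild type replicate 4 was the highest, and replicate 3 was as low as Nestin-Pex5-/- replicate 8. The gene was at 0.923-fold with an interval of 0.768 to 1.11 (limma adjusted p = 0.663), and its dimmer probe set at 0.903-fold (adjusted p = 0.605 over all probe sets).

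Pecam1 encodes CD31, an adhesion molecule at endothelial cell contacts that leukocytes and platelets also carry, at chr11:106654213-106715281 (GRCm38). It read 7.12, 7.15, 7.07 and 7.06 in Nestin-Pex5-/- arrays and 7.05, 7.0, 7.13 and 7.33 in wild type arrays. All Nestin-Pex5-/- values lay within the wild type range. The gene was at 0.980-fold with an interval of 0.870 to 1.10 (limma adjusted p = 0.881), and without wild type replicate 4 its log2 fold change was 0.04 in place of -0.03.

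Of 19 other junction genes, 1 rose (F11r) and 0 fell, with a median log2 fold change of 0.04. F11r encodes JAM-A, a tight junction protein that platelets and leukocytes also carry. It read 9.09, 9.56, 8.57 and 8.996 in Nestin-Pex5-/- arrays against 8.38, 8.29, 8.06 and 8.07 in wild type arrays, 1.81-fold higher (limma adjusted p = 0.0251). The call was lost without Nestin-Pex5-/- replicate 7 (adjusted p = 0.0586) or 10 (0.0663) without wild type replicate 2 (0.0591) or 3 (0.0735), and without Nestin-Pex5-/- replicates 7 and 8 (0.0887) or wild type replicates 3 and 4 (0.126) together, within a range of 0.0055 to 0.126 over 20 alternatives. The microglia genes that rose in the same arrays are given above, and their part in the value of F11r was not tested.

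Of the transporters, Slc2a1 and Mfsd2a were nearly uniform in Nestin-Pex5-/- mice and spread widely in wild type mice. Slc2a1 encodes GLUT1, which carries glucose across the barrier, at chr4:119108745-119137330 (GRCm38). It read 10.48, 10.44, 10.46 and 10.51 in Nestin-Pex5-/- arrays, against 10.49, 10.33, 11.04 and 10.71 in wild type arrays. The Nestin-Pex5-/- arrays spanned 0.0714 on the log2 scale and the wild type arrays 0.707, with replicate 3 the highest. The gene was at 0.890-fold with an interval of 0.726 to 1.09 (limma adjusted p = 0.564).

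Its 2 dimmer probe sets showed the same high array. The brighter of them read 10.11, 10.01, 10.09 and 10.15 in Nestin-Pex5-/- arrays and 10.16, 10.04, 10.61 and 10.28 in wild type arrays. The other read 9.43, 9.41, 9.44 and 9.41 in Nestin-Pex5-/- arrays and 9.49, 9.46, 9.90 and 9.61 in wild type arrays. On that probe set every Nestin-Pex5-/- array lay below every wild type array, at 0.876-fold, which did not pass the test (limma adjusted p = 0.386 over all probe sets, exact permutation p = 0.029).

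Mfsd2a encodes the carrier of lysophosphatidylcholine with docosahexaenoic acid, at chr4:122946850-122961194 (GRCm38). It read 8.31, 8.28, 8.42 and 8.41 in Nestin-Pex5-/- arrays, against 8.40, 8.19, 8.95 and 8.70 in wild type arrays. The order of the wild type arrays was that of Slc2a1, replicate 3 first and replicate 2 last, and the ranges were 0.143 in Nestin-Pex5-/- and 0.765 in wild type mice. The gene was at 0.866-fold with an interval of 0.692 to 1.08 (limma adjusted p = 0.516). Without wild type replicate 3 the log2 fold change was -0.08 for Mfsd2a and -0.04 for Slc2a1. Without wild type replicates 3 and 4 together it was 0.06 for each.

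In wild type replicate 3, Slc2a1 exceeded the mean of wild type replicates 1, 2 and 4 1.44-fold and Mfsd2a 1.44-fold, ranks 181 and 186 of all 18194 genes by this difference. In the same array Cldn5 was 0.37, Cdh5 0.36 and Cd34 0.46 log2 units below that mean, and of the 28 other endothelial identity genes 16 had their lowest wild type value there (28.4% of all genes did) and 5 their highest. Genes that glucocorticoids induce were high in it, with a mean of 10 genes at 8.67, 8.54, 8.67 and 8.71 in Nestin-Pex5-/- arrays and 8.66, 8.53, 9.53 and 8.67 in wild type arrays, and all 10 had their highest wild type value in replicate 3. So did 6 of 6 genes of striatal projection neurons, and 8 of 17 genes of the hypoxia response, where 16.0% of all genes did. The glucocorticoid and striatal lists were added after the data had been examined, and their part in the values of Slc2a1 and Mfsd2a was not tested.

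Wild type replicate 4 was high for many of the genes. All 10 lay above the mean of wild type replicates 1 to 3 in it, against 69.4% of all genes, and 7 of 10 had their highest wild type value there, against 52.2% of all genes. For the other endothelial identity genes the latter count was 22 of 28, and for genes of pericytes and smooth muscle 13 of 18. The wild type range was the wider of the 2 genotypes in 8 of the 10 genes and in 62.2% of all genes.

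**Figure D3:**
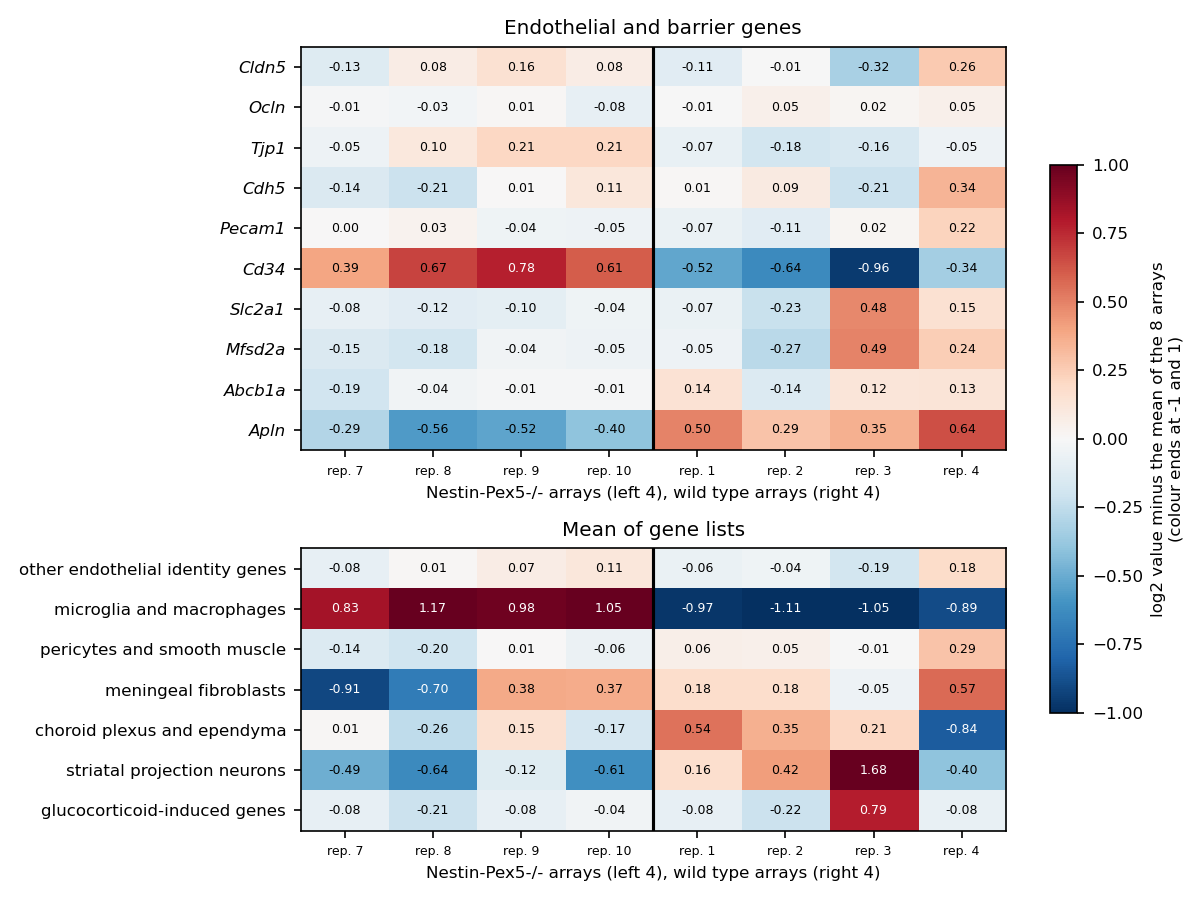
Log2 value of each of the 10 genes (above) and mean log2 value of 7 gene lists (below) minus the mean of the 8 arrays, with Nestin-Pex5-/- arrays left of the line and wild type arrays right of it; red is above the mean, blue below, and the colour ends at -1 and 1. Cd34 and Apln divide by genotype in opposite directions, Slc2a1 and Mfsd2a stand out in wild type replicate 3 with the striatal and glucocorticoid lists, and 7 of the 10 genes have their highest wild type value in replicate 4.

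Abcb1a encodes P-glycoprotein of the mouse barrier, which pumps drugs back into the blood, at chr5:8567091-8748575 (GRCm38). It read 8.11, 8.27, 8.29 and 8.29 in Nestin-Pex5-/- arrays, against 8.45, 8.16, 8.42 and 8.43 in wild type arrays. Wild type replicate 2 lay among the Nestin-Pex5-/- arrays and the other 3 wild type arrays above them. The gene was at 0.917-fold with an interval of 0.811 to 1.04 (limma adjusted p = 0.467, exact permutation p = 0.114), and its dimmer probe set at 0.918-fold (adjusted p = 0.571 over all probe sets).

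Of 21 other transporters of the barrier, 1 rose (Slco2b1) and 0 fell, with a median log2 fold change of -0.04. Slco2b1, an organic anion transporter, read 8.96, 8.90, 9.13 and 9.12 in Nestin-Pex5-/- arrays against 8.43, 8.64, 8.48 and 8.63 in wild type arrays, 1.40-fold higher (limma adjusted p = 0.0057). The call held under all 20 alternatives. Microglia genes rose in the same arrays, as given above, and the part of these cells in the value of Slco2b1 was not tested. Slc16a1, the monocarboxylate transporter MCT1, read 10.93 to 11.16 in Nestin-Pex5-/- and 10.23 to 10.91 in wild type arrays without overlap, at 1.44-fold, and did not pass the test (limma adjusted p = 0.0528). It was named after its values had been seen.

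The structures around the endothelium were read through further lists. Of 9 genes of vesicle transport and fenestration, 1 rose and 1 fell: the caveolar genes Cav2, at 1.58-fold (limma adjusted p = 0.0130), and Cavin2, at 0.717-fold (limma adjusted p = 0.0491). The call of Cavin2 was lost without any single array other than wild type replicate 4 (adjusted p = 0.0599 to 0.142, within 0.0058 to 0.142 over 19 alternatives) and without Nestin-Pex5-/- replicates 7 and 8 together (0.112). Its main probe set is of the _s_at kind, and the call was lost with _s_at, _x_at and _a_at probe sets left out (0.0778). Averaged probe sets (0.0934), the fit over all probe sets (0.0639) and reference gene scaling (0.0742) also ended this call. That of Cav2 was lost when its probe sets were averaged (log2 fold change 0.28, adjusted p = 0.135) and without wild type replicates 3 and 4 together (log2 fold change 0.53, adjusted p = 0.0699), within 0.0027 to 0.135 over 20 alternatives. Plvap, the diaphragm protein of fenestrated capillaries, was at 0.981-fold with an interval of 0.886 to 1.09, and was named after its value had been seen. Of 15 basement membrane genes 0 were called, with a median of -0.09. Sparc, the matrix protein with the highest level in that list, was at 0.937-fold.

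Of 16 genes of the Wnt and Norrin pathway, 0 rose and 1 fell, with a median of -0.06. Fzd4, the endothelial receptor of Norrin, read 6.88, 6.67, 6.77 and 6.79 in Nestin-Pex5-/- arrays against 7.08, 7.09, 7.25 and 7.29 in wild type arrays. It fell to 0.759-fold (limma adjusted p = 0.0108), and leaving out no single array ended this call, but leaving out Nestin-Pex5-/- replicates 7 and 8 together did (log2 fold change -0.40, adjusted p = 0.0539). Of 17 genes of the hypoxia response, of which Slc2a1 is a known target, 1 rose and 0 fell, with a median of -0.04. Hk2, a hexokinase, was 2.79-fold higher, at 8.09 ± 0.11 in Nestin-Pex5-/- and 6.61 ± 0.24 in wild type arrays (SD, n = 4 each).

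Of 17 genes of endothelial activation and adhesion, 7 rose and 1 fell, with a median log2 fold change of 0.25, and their mean lay between 7.09 and 7.50 in Nestin-Pex5-/- arrays against 6.68 to 6.89 in wild type arrays. Ch25h, which makes 25-hydroxycholesterol, was 6.84-fold higher and Lcn2, an iron-binding lipocalin, 4.66-fold higher (limma adjusted p = 0.0071). Icam1 and Vcam1, the adhesion molecules on which leukocytes arrest, were 4.12-fold and 1.52-fold higher. Edn1, the vasoconstrictor endothelin-1, fell to 0.801-fold (limma adjusted p = 0.0371). Sele, Selp, Madcam1 and Ackr1 of the same list were not called. Their log2 fold changes were 0.016, 0.025, 0.0013 and 0.27 (limma adjusted p = 0.949, 0.942, 0.996 and 0.343). Sele, Selp and Madcam1 were dim, with wild type means of 3.57, 4.82 and 4.94. Icam1, Vcam1, Sele, Selp, Madcam1, Ackr1 and Edn1 were named after their values had been seen. Microglia and astrocytes can express several of these genes, and the part of each cell type was not tested.

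**Figure D4:**
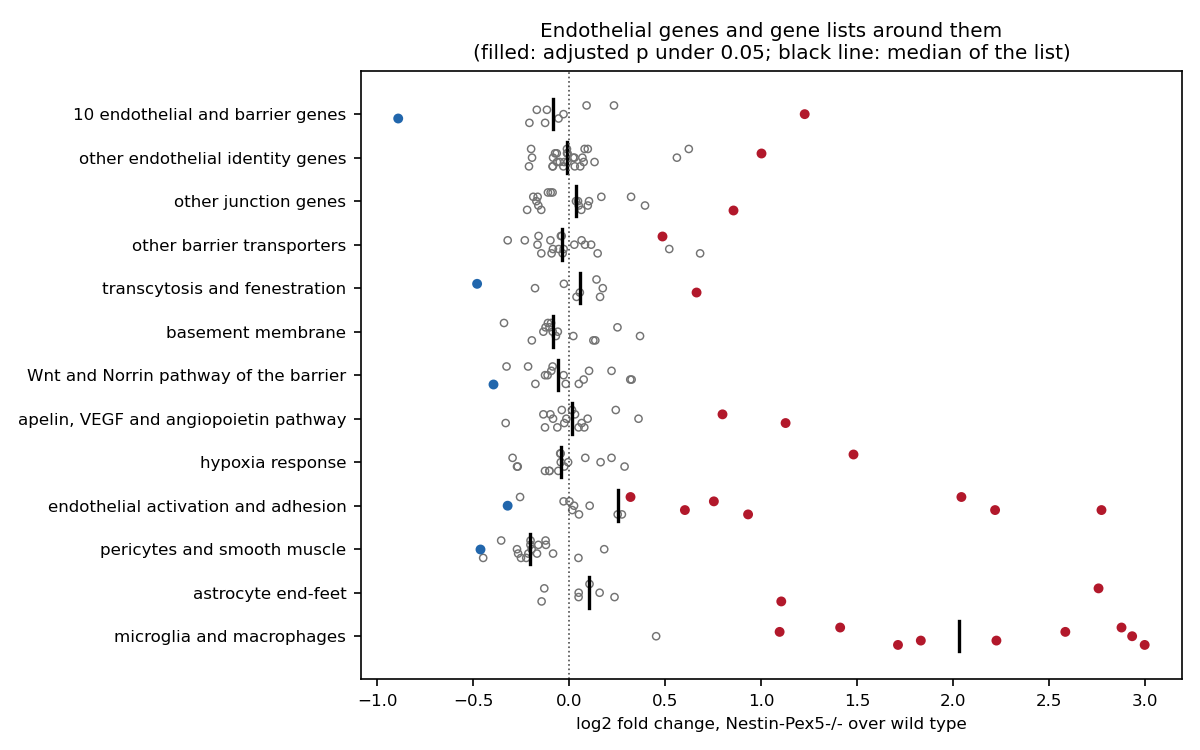
Difference in log2 value, Nestin-Pex5-/- minus wild type, for each gene of 13 lists, filled where the adjusted p was under 0.05 (red higher, blue lower), with a black line at each list's median. The medians of the other endothelial identity, junction and barrier transporter lists lie near 0, with 1 of 28, 1 of 19 and 1 of 21 genes called. Of the 10 endothelial and barrier genes, 2 were called. Called higher were 9 of 10 microglia genes and 7 of 17 activation and adhesion genes. Over all genes, 4.77% were called, 3.98% as higher.

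Of 18 genes of pericytes and smooth muscle, 0 rose and 1 fell, with a median of -0.20, and their mean was 7.19 to 7.40 in Nestin-Pex5-/- and 7.39 to 7.68 in wild type arrays. Vtn, the vitronectin that pericytes secrete, fell to 0.724-fold (limma adjusted p = 0.0299). That call was lost without Nestin-Pex5-/- replicate 7 (adjusted p = 0.0656) or 8 (0.0989) and without wild type replicate 1 (0.0549) or 2 (0.0817). It was also lost without Nestin-Pex5-/- replicates 7 and 8 (0.177) or wild type replicates 3 and 4 (0.0634) together. Averaged probe sets (0.0673), reference gene scaling (0.0615) and centring on the array median (0.0515) ended it as well. The adjusted p ran from 0.0038 to 0.177 over 19 alternatives. Of 9 genes of astrocyte end-feet, 2 rose and 0 fell, with a median of 0.11: Gfap, the intermediate filament of astrocytes, at 6.76-fold, and Aqp4, the water channel of end-feet, at 2.15-fold (limma adjusted p = 0.0022). Red blood cell genes, which follow the blood left in the tissue, were called in 0 of 5, with a mean of 5.17 to 5.41 in Nestin-Pex5-/- and 5.20 to 5.61 in wild type arrays.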

How the data were processed

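Hypothalamus RNA of 4 Nestin-Pex5-/- and 4 wild type mice was hybridised to 1 array each. The authors deposited log2 values made with RMA (per the labels, with no version). Software and probe set definition are not given in the sources used here, and RMA narrows fold changes of dim probe sets. Of 45101 probe sets, 34958 were annotated to 1 gene, 932 to several and 9211 to none; 34754 of the single-gene ones matched the GRCm38.p6 gene table by gene identifier. Only single-gene probe sets were used, the one with the highest mean for each gene (18194 genes, 9012 with several probe sets). No column was left unmapped.

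Limma 3.58.1 under R 4.3.3 compared the genotypes (lmFit, eBayes, two-sided; Benjamini-Hochberg over all genes, threshold 0.05; 95% intervals), tested on simulated data first. For single genes the difference in means was also tested by exact permutation, two-sided. A separate fit covered all single-gene probe sets. Arrays are 1 per mouse, so their number limits the precision. Plots were made in Python 3.11.15 with matplotlib 3.10.9.

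The 10 genes, the lists around them and the tests were chosen with earlier results of these data known. Genes named are the 10, up to 2 called genes with the largest log2 fold change per list or, with none called, the gene with the highest level, and Pex5 and Actb; others are said to be named after their values were seen. Alternatives changed the level filter, the choice of probe set, the scaling, the eBayes settings, array weights and the arrays used.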

Additional observations from a re-analysis of the deposited data

Results flagged for a closer look

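Among 30 groups of 4 arrays (15 probe sets in 2 genotypes), 2 held a value whose gap to its neighbour, over the range of the group, passed Dixon's 95% limit for 4 values. Both belong to the main probe set of Abcb1a. Nestin-Pex5-/- replicate 7 read 8.11 where the other 3 read 8.27 to 8.29, and wild type replicate 2 read 8.16 where the other 3 read 8.42 to 8.45. Chance passes this limit in about 1 of 20 groups.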

How the results depend on the processing

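No paired analysis was possible because the genotypes share no replicate number in the labels. Over all genes, 724 were called higher and 144 lower. Leaving out dim probe sets gave 416 higher (Cd34, Cdh5, Pecam1 and Ocln were then not tested, so 0 of the 10 genes were higher). Scaling to Actb gave 540 higher and 1086 lower (33.2% of calls higher, against 83.4%), with a median log2 fold change of -0.16 over all genes in place of -0.03. Actb itself read 13.99 ± 0.068 in Nestin-Pex5-/- and 13.86 ± 0.016 in wild type arrays (SD, n = 4 each). Its log2 fold change was 0.13, without overlap between the genotypes, and it was not called (limma adjusted p = 0.272). Scaling to reference genes gave 900 higher and 75 lower. Array weights gave 1351 higher and 699 lower (65.9% higher) and 2 of the 10 genes higher, the added one being Tjp1. Leaving out wild type replicates 3 and 4 together gave 893 higher and 286 lower, and leaving out Nestin-Pex5-/- replicates 7 and 8 together gave 524 and 140; both were added after the data had been examined. Leaving out 1 array gave 543 (without Nestin-Pex5-/- replicate 9) to 1080 higher (without wild type replicate 4) and 46 (without Nestin-Pex5-/- replicate 10) to 331 lower (without wild type replicate 4), and among the 10 genes 1 to 2 higher (2 without Nestin-Pex5-/- replicate 7) and 1 lower. None of these counts names which genes were shared.

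Of 194 recomputed values of the 10 genes, 183 kept direction and side of the threshold, 9 changed sign and 2 passed it (Tjp1). The 9 sign changes were in genes that were not called. Cldn5 was -0.037 with Actb scaling and, with 1 array left out, ran from -0.0022 (without wild type replicate 3) to 0.193. Pecam1 was 0.018 both with reference gene scaling and with array weights, ran from -0.072 to 0.039 (without wild type replicate 4) with 1 array left out, and was 0.076 without wild type replicates 3 and 4, where Slc2a1 was 0.063 and Mfsd2a 0.059. Cdh5 was 0.0031 without Nestin-Pex5-/- replicates 7 and 8. Of the values of the other named genes, 433 kept direction and side of the threshold, 47 lost the threshold, 1 passed it (Mbp, with array weights) and 2 changed sign. Of these 2, Itga2b, a platelet integrin, turned to 0.016 without wild type replicates 3 and 4, and Igf2, a meningeal gene, to 0.17 without Nestin-Pex5-/- replicates 7 and 8; neither was called.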
